A study of Mus musculus with 8 samples.

Results

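The tumor necrosis factor (TNF) superfamily genes of the mouse retina are described here across microglia and infiltrating macrophages. Members were all genes whose deposited symbol begins with Tnfsf or Tnfrsf followed by a digit. They numbered 31 of 22558 gene symbols, 11 ligands (Tnfsf) and 20 receptors (Tnfrsf). The symbols were matched by name alone, so superfamily genes with other symbols, such as Tnf and Cd40, are given separately.

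RNA was sequenced from 8 libraries of retina taken on day 7 after injury, 4 labelled as microglia (numbered 1 to 4) and 4 labelled as infiltrating macrophages (numbered 5 to 8). The mice had the genotype Msi1-CreERT2/+; R26R-DTA/+ and a C57BL/6; 129 mixed strain background in all 8 cases, and their age was given as about 5 months. In this model a tamoxifen-inducible Cre is driven by Msi1 and turns on diphtheria toxin fragment A in the cells that express it. The labels give the same genotype and injury for every library, and no uninjured library was analysed here. The labels do not say whether the libraries came from separate animals, what GFP in the macrophage titles marks or how cells were separated. A p-value here therefore sets a group difference against the spread of these libraries, and part or all of that spread may be technical.

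Ligands of the superfamily are mostly membrane-bound trimers that can be shed, and they cluster receptors on the responding cell. Receptors with a death domain can recruit caspase-activating adaptors, and many of the others bind TRAF adaptors that lead to NF-kB. Myeloid cells supply ligands such as BAFF and APRIL to B cells and CD30 and 4-1BB ligands to T cells, and they carry TNF receptors themselves.

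Values are FPKM, read fragments divided by transcript length and by the library's number of fragments, which can be compared between genes because they are scaled by length. The FPKM steps of low genes put the depth at about 11.2 M fragments in microglia 1 and 19.5 M to 24.6 M in the other 7 libraries, and 1 fragment on a transcript of 2 kb was then worth 0.022 to 0.0482 FPKM. Microglia 2 had 5992 genes at 1 FPKM or more, and the other libraries had 8165 to 10282. The 11 microglial markers summed to 2495 to 3497 FPKM in microglia and 721 to 2445 in macrophages, and the 12 detected monocyte and macrophage markers summed to 890 to 1555 and 1899 to 4848. Of these, P2ry12 was at 86.8 to 152 FPKM in microglia and 4.54 to 29.0 in macrophages, while Tmem119 was at 179 to 339 and 106 to 365. Photoreceptor markers summed to 27.1 to 191 FPKM in microglia and 4.21 to 57.7 in macrophages. Red cell markers summed to 0.683 to 2437 and 0.693 to 23.7 in the same groups. Neutrophil markers summed to 27.4 to 36.7 FPKM in microglia and 57.6 to 255 in macrophages, but their members differed in direction. Csf3r made up most of the microglial sum at 26.0 to 36.3 FPKM, and it was lower in macrophages at 9.07 to 15.2. S100a8, S100a9 and Retnlg were listed at 0 in all microglia and were at 1.06 FPKM or more in every macrophage library. The 4 Y-linked genes summed to 25.8, 11.7 and 16.5 FPKM in microglia 1, 2 and 3 and to 1.97 or less in the other 5 libraries, so this sum was not balanced between the groups.

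**Figure D1:**
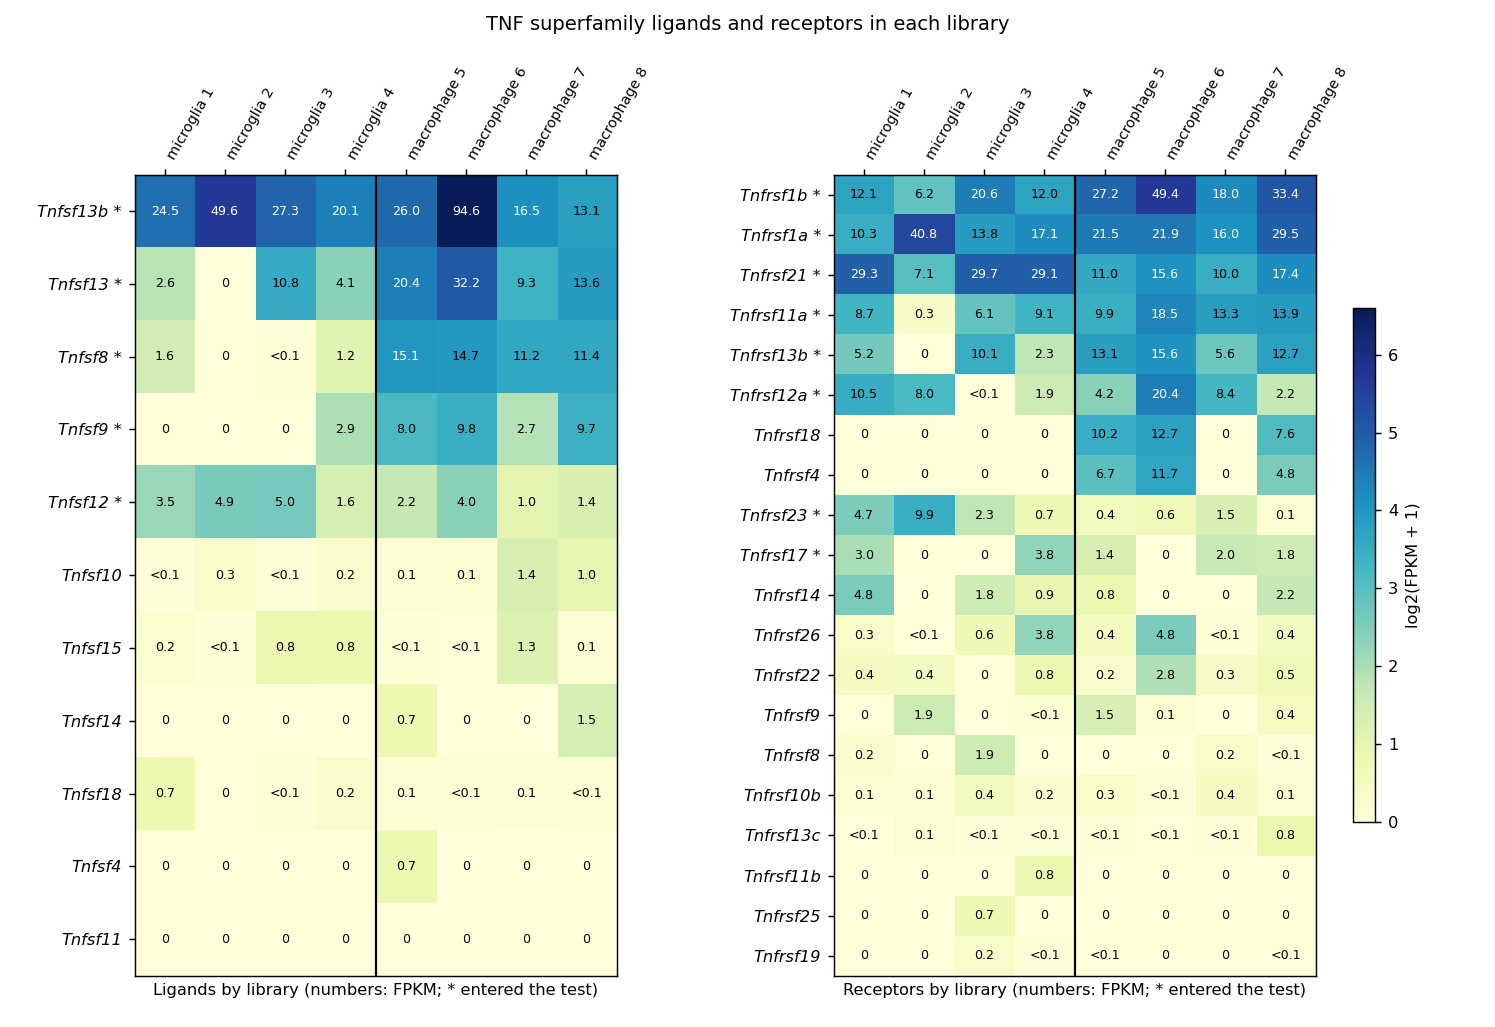
Level of each of the 11 ligands (left) and 20 receptors (right) in each library, printed as FPKM and coloured by log2(FPKM + 1), with libraries in columns and the vertical line between microglia and macrophages. Tnfsf13b leads the ligands in 7 of 8 libraries, Tnfsf8 is above 11 FPKM only in macrophages, and Tnfrsf4 and Tnfrsf18 are above 0 in the same 3 macrophage libraries.

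Among the ligands, Tnfsf8 and Tnfsf9 were called higher in macrophages than in microglia, and Tnfsf13b was high in both. The call held in 17 of 18 other settings for Tnfsf8 and in 5 of 18 for Tnfsf9. Of the 11 ligands, 8 reached 1 FPKM in at least 1 library and 5 reached that level in 4 or more libraries, the condition for entering the test. The test was limma on log2(FPKM + 1) over 9352 genes, so a log2 fold change is macrophages minus microglia on that scale and understates the change of low genes. Of the 5 ligands tested, 2 passed an adjusted p of 0.05 and both were higher in macrophages. Over all genes tested the same threshold called 2.34%, with 1.65% higher and 0.695% lower in macrophages. Because a ligand could enter the test through the macrophages alone, these counts describe the ligands that passed the filter and not all 11. The median log2 fold change was 2.24 for the 5 tested ligands and 0.37 for all genes tested.

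Tnfsf8 encodes CD30 ligand, a membrane protein known from T cell costimulation. Its level was 1.64, 0, 0.0504 and 1.15 FPKM in microglia 1 to 4 and 15.1, 14.7, 11.2 and 11.4 FPKM in macrophages 5 to 8. Every macrophage library lay above every microglial one. On the log2(FPKM + 1) scale the fold change was 3.16 ± 0.67 (SE, n = 4 and 4, 95% interval 1.77 to 4.55, limma adjusted p = 0.00883). The call held in 17 of 18 other settings and was lost with a term for summed Y-linked expression, which is partly confounded with the groups (2.91, limma adjusted p = 0.515). Neutrophil and dendritic cell marker sums were also higher in most macrophage libraries, and their part in the ligand differences was not tested. In these bulk libraries, fewer cells of a type and less RNA per cell cannot be told apart.

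Tnfsf8 lies on the minus strand of chr4:63493858-63522318 (NCBIM37, the same assembly as mm9) and has 4 exons. The bases upstream of its start are shown because it is the member with the clearest difference between the groups. The sequence is that of chr4:63522382-63522568, minus strand, the part of the RefSeq promoter window of 250 bases (GRCm38.p6 table, matched once and exactly in NCBIM37) that lies before the start in both annotations.
Tnfsf8: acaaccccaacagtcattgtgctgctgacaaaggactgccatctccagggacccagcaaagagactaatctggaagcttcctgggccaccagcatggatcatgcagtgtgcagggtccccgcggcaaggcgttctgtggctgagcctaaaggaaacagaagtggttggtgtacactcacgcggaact
Of 187 bases shown, 55.6% were G or C, with 5 CpG dinucleotides. The motifs were searched on both strands of the 250 bases before each start: the TATA box TATAAA, the AP-1 site TGANTCA, the PU.1 core GAGGAA and the kappa B consensus. They occurred in 12.4%, 6.75%, 23.3% and 7.25% of all 32851 promoters in the table, and the Tnfsf8 window held none of these letters.

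Tnfsf9 encodes 4-1BB ligand, another costimulator of T cells. It was listed at 0 in microglia 1, 2 and 3, at 2.86 FPKM in microglia 4, and at 7.97, 9.82, 2.68 and 9.71 FPKM in macrophages 5 to 8. Microglia 4 thus lay above macrophage 7, and the other 3 microglial libraries lay below every macrophage library. The log2 fold change was 2.49 ± 0.67 (SE, 95% interval 1.11 to 3.87, limma adjusted p = 0.0484). It passed the threshold in 5 of 18 other settings, with limma adjusted p-values from 0.0185 to 1.0, and the exact permutation test gave an unadjusted p of 0.0571. Leaving out microglia 1, 2 or 3 or macrophage 5, 6 or 8 each ended the call, with limma adjusted p-values of 0.137, 0.0648, 0.123, 0.122, 0.119 and 0.146.

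Tnfsf13b and Tnfsf13 encode BAFF and APRIL, factors that keep B cells and plasma cells alive. Tnfsf13b was at 24.5, 49.6, 27.3 and 20.1 FPKM in microglia and 26.0, 94.6, 16.5 and 13.1 FPKM in macrophages. It made up 62.0% to 90.5% of the summed ligand FPKM in microglia 1 to 4, and 35.3%, 60.9% and 37.9% in macrophages 5, 6 and 7. In macrophage 8 the highest ligand was Tnfsf13, with 26.3% of the sum. The Tnfsf13b groups overlapped, with the highest and the lowest value both in macrophages, and the log2 fold change was -0.07 ± 0.61 (SE, 95% interval -1.34 to 1.2, limma adjusted p = 0.972). Its sign changed with the scaling and with the libraries used, so no direction is given.

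Tnfsf13 was at 2.55, 0, 10.8 and 4.14 FPKM in microglia and 20.4, 32.2, 9.33 and 13.6 FPKM in macrophages. Only microglia 3 reached into the macrophage range, and only past macrophage 7. The log2 fold change was 2.24 ± 0.75 (SE, 95% interval 0.70 to 3.78), which did not pass the threshold (limma adjusted p = 0.134), and it was 1.60 without microglia 2. Tnfsf13 and its neighbour Tnfsf12 lie head to tail on chromosome 11 and share exon sequence with BC096441, a transcript that reads through both on the same strand. Of all stretches of 50 bases in their transcripts, 57.3% of those of Tnfsf13 and 46.8% of those of Tnfsf12 also occur in BC096441, so how reads were divided between the 3 genes is uncertain.

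Tnfsf12 encodes TWEAK, the ligand of Fn14. It was at 3.54, 4.91, 5.01 and 1.56 FPKM in microglia and 2.19, 4.01, 1.02 and 1.4 FPKM in macrophages. Besides Tnfsf13b it was the only ligand at 1 FPKM or more in all 8 libraries, and its groups overlapped (log2 fold change -0.60 ± 0.65 SE, 95% interval -1.94 to 0.74, limma adjusted p = 0.713).

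The 6 ligands that were not tested stayed low. Tnfsf10, which encodes the death ligand TRAIL, was at 0.055, 0.256, 0.066 and 0.225 FPKM in microglia and 0.137, 0.117, 1.43 and 0.959 FPKM in macrophages. Tnfsf14, encoding LIGHT, was listed at 0 in all microglia and in macrophages 6 and 7, and was at 0.731 and 1.51 FPKM in macrophages 5 and 8. Tnfsf15, encoding TL1A, was at 0.166, 0.0297, 0.790 and 0.765 FPKM in microglia and 0.0875, 0.000818, 1.26 and 0.103 FPKM in macrophages. These 3 genes each passed 1 FPKM in a single macrophage library. The ligands of OX40 (Tnfsf4) and GITR (Tnfsf18) never reached 1 FPKM, with highest values of 0.748 in macrophage 5 and 0.714 in microglia 1. Tnfsf11, which encodes the osteoclast factor RANKL, was listed at 0 in all 8 libraries.

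**Figure D2:**
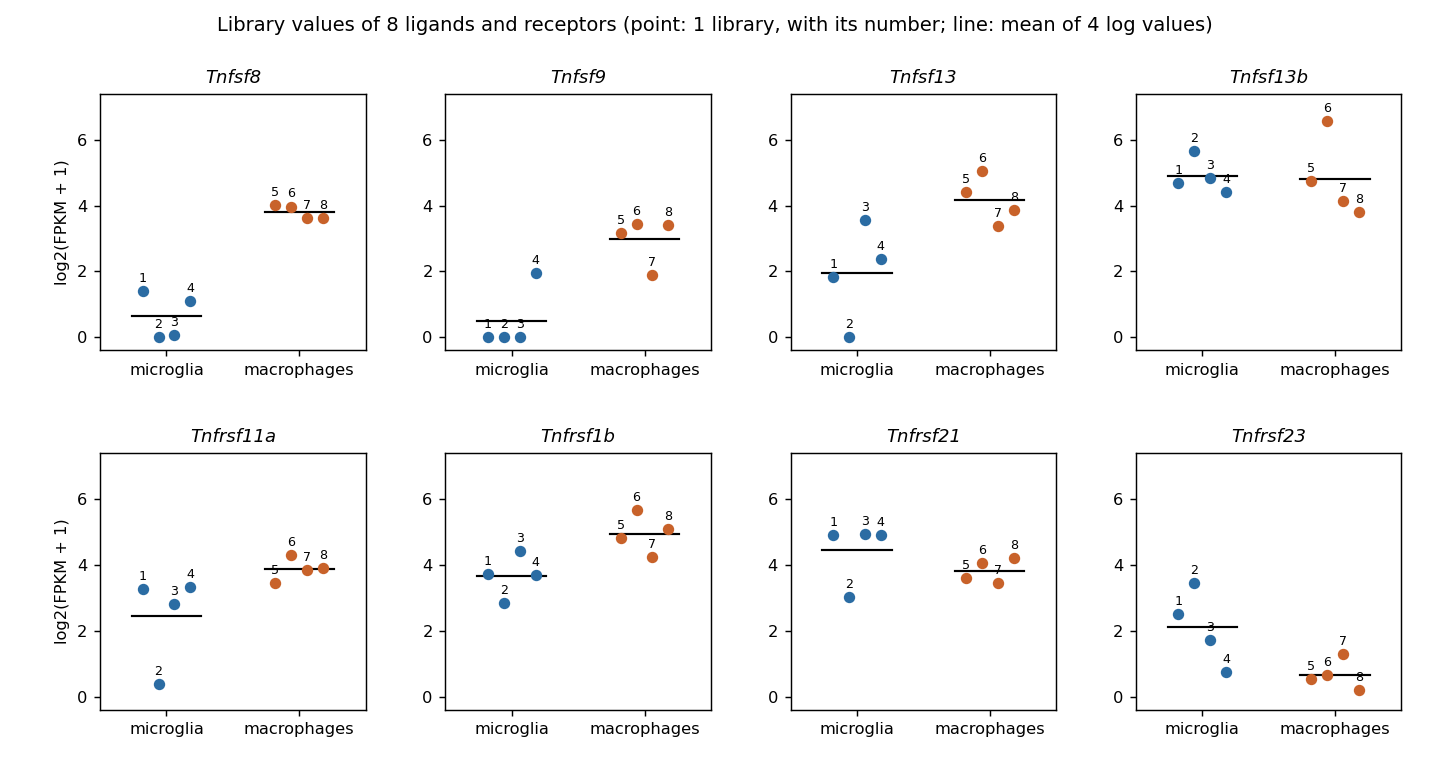
Level of 4 ligands (top) and 4 receptors (bottom) as log2(FPKM + 1) in each library, with the library number above each point and a line at the mean of 4 log values. The groups do not overlap for Tnfsf8 and Tnfrsf11a, and microglia 2 is the lowest library for Tnfrsf11a, Tnfrsf1b and Tnfrsf21.

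Of the 20 receptors, 15 reached 1 FPKM in at least 1 library, 8 entered the test and none passed the adjusted threshold by limma. At an unadjusted p below 0.05, limma gave 3 of these 8 receptors, Tnfrsf1b and Tnfrsf13b higher and Tnfrsf23 lower in macrophages, and it gave 15.0% of all genes tested. With the 3 such ligands (Tnfsf8, Tnfsf9 and Tnfsf13), 6 of 13 tested members were below that level. These counts cover only members that passed the filter, which a gene could do through the macrophages alone. The median log2 fold change of the 8 tested receptors was 0.57, against 0.37 for all genes tested. The groups did not overlap for 1 tested ligand, Tnfsf8, and 1 tested receptor, Tnfrsf11a, both higher in macrophages. Over all genes tested, 5.69% did not overlap and were higher, and 1.95% did not overlap and were lower. The highest receptor by FPKM was Tnfrsf21 in microglia 1, 3 and 4, Tnfrsf1a in microglia 2 and Tnfrsf1b in all 4 macrophage libraries.

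Tnfrsf1a and Tnfrsf1b encode the receptors of TNF itself. Tnfrsf1a, TNF receptor 1, has a death domain, and it was at 10.3, 40.8, 13.8 and 17.1 FPKM in microglia and 21.5, 21.9, 16.0 and 29.5 FPKM in macrophages. Microglia 2 was the highest and microglia 1 the lowest of the 8, and the log2 fold change was 0.27 ± 0.58 (SE, 95% interval -0.93 to 1.46, limma adjusted p = 0.869). Tnfrsf1b, TNF receptor 2, has no death domain, and it was at 12.1, 6.21, 20.6 and 12 FPKM in microglia and 27.2, 49.4, 18.0 and 33.4 FPKM in macrophages. Only microglia 3 and macrophage 7 overlapped. The log2 fold change was 1.28 ± 0.58 (SE, 95% interval 0.08 to 2.48), which did not pass the threshold (limma adjusted p = 0.303).

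Tnfrsf11a encodes RANK, the receptor of RANKL. It was at 8.69, 0.303, 6.08 and 9.09 FPKM in microglia and 9.89, 18.5, 13.3 and 13.9 FPKM in macrophages. Every macrophage library was above every microglial one, although microglia 4 and macrophage 5 lay close together, and microglia 2 stood far below the rest. Its log2 fold change was 1.41 ± 0.71 (SE, 95% interval -0.06 to 2.88, limma adjusted p = 0.358). A two-sided exact permutation test over the 8 libraries gave an unadjusted p = 0.0286, the smallest it can give with 4 against 4. Groups that do not overlap always give this value, so it only restates their order. Without microglia 2 the log2 fold change was 0.72 (limma adjusted p = 0.670).

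Tnfrsf13b and Tnfrsf17 encode TACI and BCMA, which bind both BAFF and APRIL, and Tnfrsf13c encodes the BAFF receptor of B cells. Tnfrsf13b was at 5.16, 0, 10.1 and 2.35 FPKM in microglia and 13.1, 15.6, 5.57 and 12.7 FPKM in macrophages, with microglia 3 above macrophage 7. The log2 fold change was 1.63 ± 0.75 (SE, 95% interval 0.07 to 3.19, limma adjusted p = 0.311), and 0.98 without microglia 2. Tnfrsf17 was at 3 and 3.76 FPKM in microglia 1 and 4 and at 1.41, 1.99 and 1.83 FPKM in macrophages 5, 7 and 8, and it was listed at 0 in the other 3 libraries. Its log2 fold change was 0.02 ± 0.59 (SE, 95% interval -1.19 to 1.24, limma adjusted p = 0.989) and changed sign with the processing. Tnfrsf13c stayed at or below 0.803 FPKM. The 9 B cell markers summed to 0.0998 to 43.3 FPKM in microglia, lowest in microglia 2, and to 6.43 to 18.2 FPKM in macrophages. The part of B cells in these receptor values was not tested.

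Tnfrsf21 encodes death receptor 6. It was at 29.3, 7.07, 29.7 and 29.1 FPKM in microglia and 11, 15.6, 9.97 and 17.4 FPKM in macrophages. Microglia 1, 3 and 4 lay above every macrophage library and microglia 2 lay below them all. Over all 8 libraries the log2 fold change was -0.62 ± 0.60 (SE, 95% interval -1.87 to 0.63, limma adjusted p = 0.678). Without microglia 2 it was -1.10 (limma adjusted p = 0.419).

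Tnfrsf22 and Tnfrsf23 encode mouse decoy receptors of TRAIL, and Tnfrsf10b encodes its death receptor. Tnfrsf23 was at 4.71, 9.91, 2.33 and 0.683 FPKM in microglia and 0.443, 0.563, 1.48 and 0.142 FPKM in macrophages. It was the only tested member with an unadjusted limma p below 0.05 that was lower in macrophages (log2 fold change -1.44 ± 0.62 SE, 95% interval -2.71 to -0.17, adjusted p = 0.274), and microglia 4 fell within the macrophage range. Tnfrsf22 was at 0.414, 0.396, 0 and 0.763 FPKM in microglia and 0.226, 2.77, 0.323 and 0.540 FPKM in macrophages. Of the stretches of 50 bases in Tnfrsf23, 21.5% also occur in Tnfrsf22, so reads could have been split between them. Tnfrsf10b was detected in every library but at 0.0501 to 0.438 FPKM only.

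Tnfrsf12a encodes Fn14, the receptor of TWEAK. It was at 10.5, 8.05, 1.03e-10 and 1.88 FPKM in microglia and 4.22, 20.4, 8.35 and 2.16 FPKM in macrophages. Libraries of both groups were spread over the same range, and the log2 fold change was 0.87 ± 0.82 (SE, 95% interval -0.83 to 2.57, limma adjusted p = 0.668). Without microglia 3 it was 0.18, and without microglia 1 it was 1.35. Its exons overlap those of Hcfc1r1 on the opposite strand by 78 bases.

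**Figure D3:**
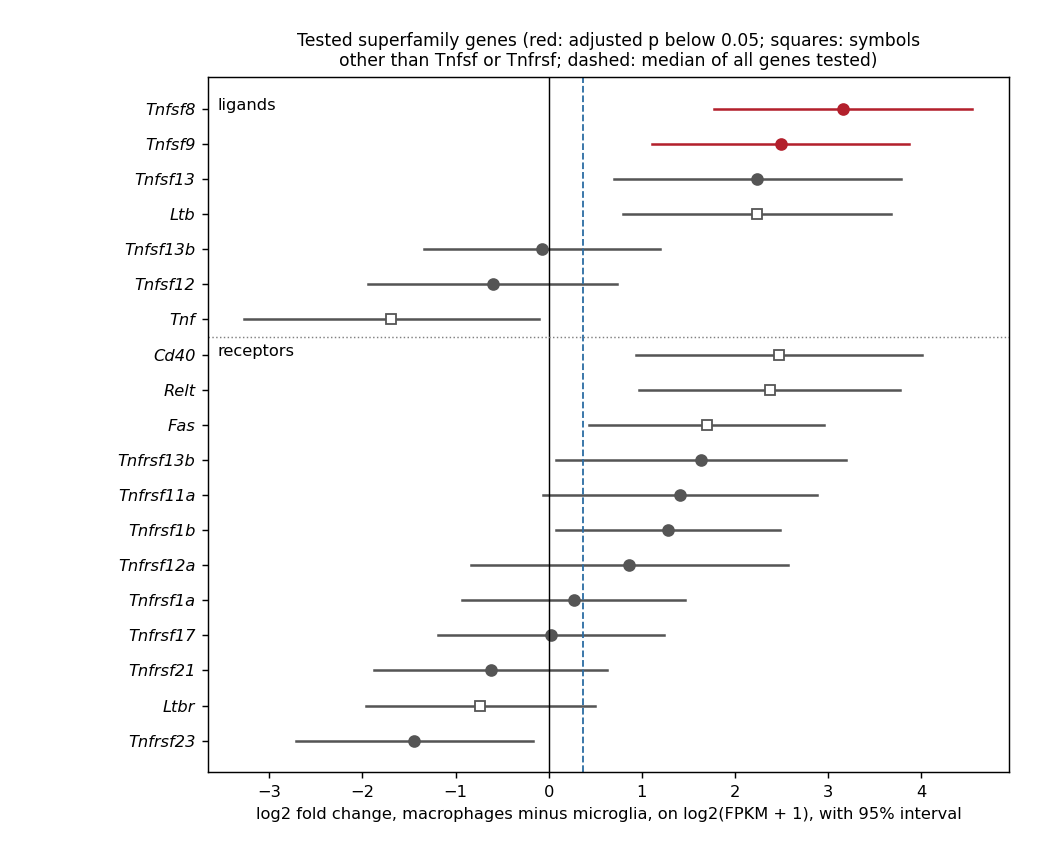
Log2 fold change (macrophages minus microglia, log2(FPKM + 1)) with its 95% interval for the tested superfamily genes, ligands above and receptors below the dotted line, with open squares for genes whose symbol is not Tnfsf or Tnfrsf. Tnfsf8 and Tnfsf9 (red) passed the adjusted threshold, and the dashed line marks the median of all genes tested, 0.37.

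Tnfrsf4 and Tnfrsf18 encode OX40 and GITR, costimulatory receptors best known from activated and regulatory T cells. Tnfrsf4 was listed at 0 in all 4 microglial libraries and was at 6.71, 11.7, 0 and 4.79 FPKM in macrophages 5 to 8. Tnfrsf18 was likewise listed at 0 in all microglia and was at 10.2, 12.7, 0 and 7.57 FPKM in macrophages. The genes were thus above 0 in the same 3 libraries and at 0 in the same 5, macrophage 7 among them. With 3 libraries at 1 FPKM or more they did not enter the test. With genes kept by a mean of at least 1 FPKM instead, the log2 fold changes were 2.29 for Tnfrsf4 (limma adjusted p = 0.15) and 2.59 for Tnfrsf18 (limma adjusted p = 0.117), and neither passed.

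The genes are neighbours on the plus strand of chromosome 4, Tnfrsf4 at chr4:155387804-155390698 with up to 7 exons and Tnfrsf18 at chr4:155400451-155403000 with up to 6 exons (NCBIM37). The bases before their starts are shown because the genes had the same pattern over the libraries. The sequences are those of chr4:155387554-155387803 for Tnfrsf4 and chr4:155400181-155400272 for Tnfrsf18, plus strand, from the same RefSeq table, and capitals mark the PU.1 core, here on the opposite strand.
Tnfrsf4: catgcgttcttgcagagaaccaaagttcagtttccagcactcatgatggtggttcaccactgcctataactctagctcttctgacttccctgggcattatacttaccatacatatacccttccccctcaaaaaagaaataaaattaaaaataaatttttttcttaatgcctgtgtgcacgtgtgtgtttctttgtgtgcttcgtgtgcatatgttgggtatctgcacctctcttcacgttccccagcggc
Tnfrsf18: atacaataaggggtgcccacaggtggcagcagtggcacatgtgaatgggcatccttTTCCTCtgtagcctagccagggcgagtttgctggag
The Tnfrsf4 sequence had 42.8% G or C and none of the 4 motifs in its window. The Tnfrsf18 window had 1 PU.1 core, starting 194 bases before the RefSeq start, a motif that 23.3% of all promoters hold. Tnfrsf18 shares 414 exon bases with Gm16008 on the opposite strand, and whether reads were counted by strand is not given in the sources used here.

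Some markers of dendritic cells followed the same libraries as these receptors, and others did not. Of the 9 dendritic cell markers, Ccr7, Ccl22 and Btla, named after their values were seen, were listed at 0 in all microglia and were at 0.165 FPKM or less in macrophage 7. Fscn1, in contrast, was at 3.35 to 4.02 FPKM in microglia and 0.0848 to 5.76 in macrophages. Cd209a was at 8.92 and 2.04 FPKM in microglia 3 and 4 and at 1.7 FPKM in macrophage 7, and Flt3 was at 2.19 FPKM in microglia 2. Ccr7, the receptor that guides migrating dendritic cells, was at 15.7, 11.1, 0.165 and 62.4 FPKM in macrophages 5 to 8. The 9 dendritic cell markers summed to 3.48 to 15.6 FPKM in microglia and to 44.3, 76.9, 4.35 and 162 FPKM in macrophages 5 to 8. The 16 T and NK cell markers summed to 0.194 to 6.09 FPKM in microglia and 4.42 to 18.4 FPKM in macrophages. Macrophage 7 was at 6.36 FPKM, above macrophages 5 and 6. Il7r, a marker in this sum, was at 1.73, 0.688, 3.99 and 10.4 FPKM in macrophages 5 to 8. The order of macrophages 5 to 7 rested on it. Neutrophil markers summed to 150 FPKM in macrophage 7, where both receptors were at 0. Among the defining T cell genes, Cd3e was listed at 0 in 6 libraries and did not exceed 0.284 FPKM, and Cd4 did not exceed 0.833 FPKM. Cd3g was listed at 0 in all microglia, with 0.38, 1.59, 0.153 and 0 FPKM across macrophages 5 to 8. Cd8b1 was at 0.178, 0.0809, 1.44 and 1.15 FPKM in microglia and 1.09, 1.94, 0.0637 and 1.43 FPKM in macrophages. The part of these cells in the Tnfrsf4 and Tnfrsf18 values was not tested.

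**Figure D4:**
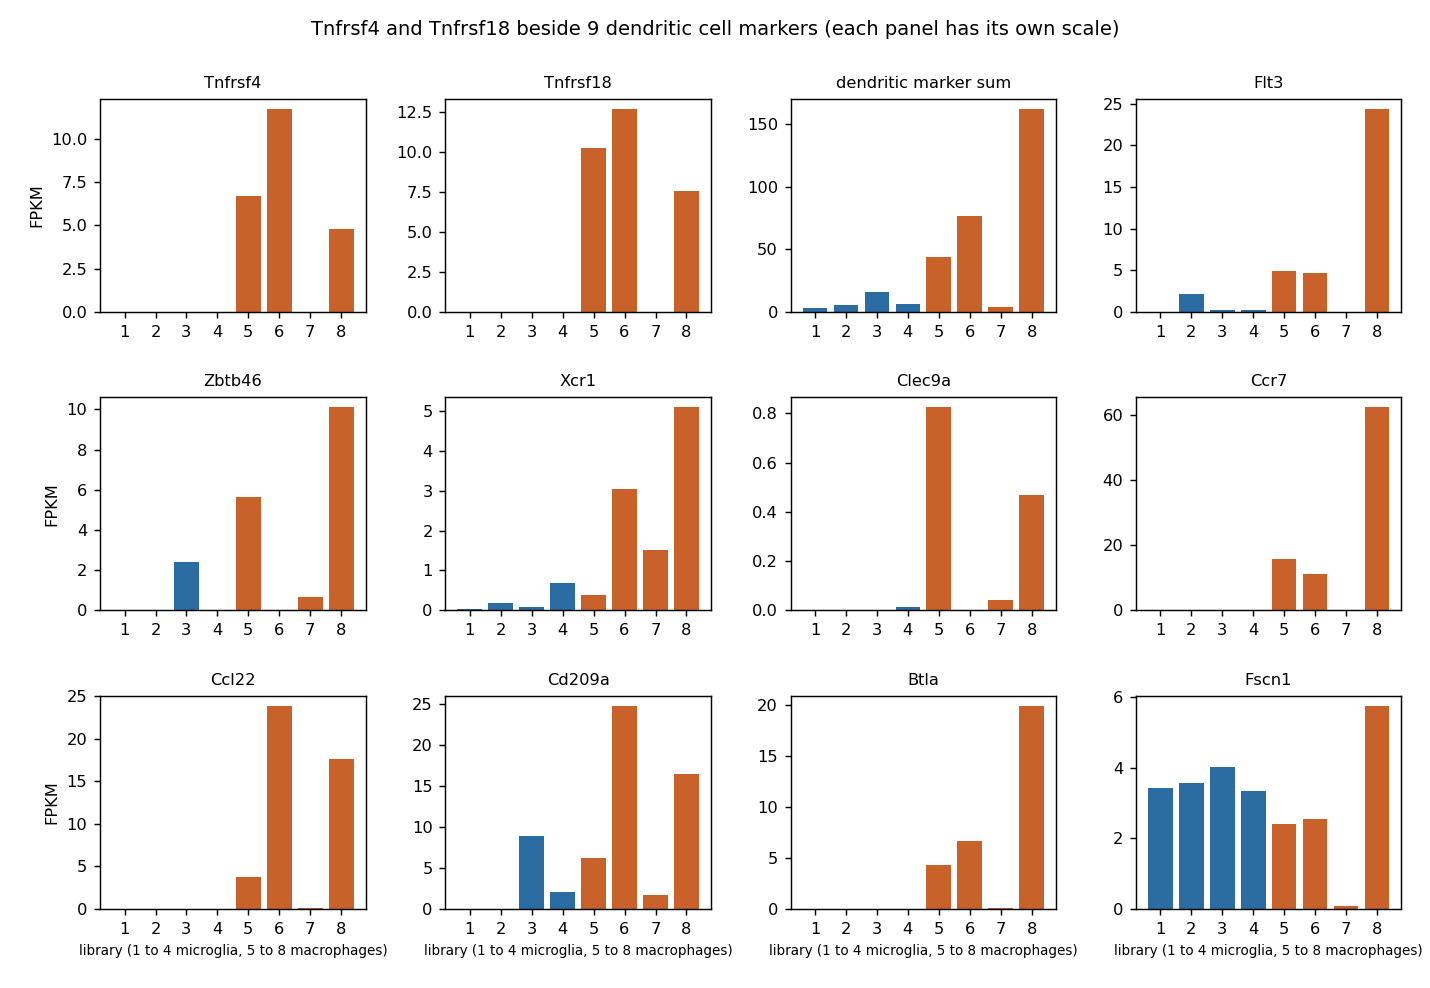
FPKM of Tnfrsf4, Tnfrsf18, the sum of 9 dendritic cell markers and each of these markers, as bars by library (1 to 4 microglia in blue, 5 to 8 macrophages in orange), each panel on its own scale. Tnfrsf4, Tnfrsf18, Ccr7, Ccl22 and Btla are at or near 0 in all microglia and in macrophage 7, while Fscn1 is at 3.35 to 4.02 FPKM in microglia.

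The other receptors above 1 FPKM anywhere did not follow the groups. Tnfrsf14, encoding HVEM, the receptor of LIGHT, was at 4.81, 0, 1.85 and 0.930 FPKM in microglia and 0.847, 0, 0 and 2.18 FPKM in macrophages. Tnfrsf26, an orphan receptor next to Tnfrsf22 and Tnfrsf23 on chromosome 7, was at 0.250, 0.00704, 0.623 and 3.77 FPKM in microglia and 0.415, 4.81, 0.021 and 0.398 FPKM in macrophages. The highest Tnfrsf14 value was in microglia 1 and the highest Tnfrsf26 value in macrophage 6. Tnfrsf8, encoding CD30, was at 0.182, 0, 1.86 and 0 FPKM in microglia and 0, 0, 0.244 and 0.0627 FPKM in macrophages. Tnfrsf9, encoding 4-1BB, was at 0, 1.89, 0 and 0.0959 FPKM in microglia and 1.45, 0.145, 0 and 0.365 FPKM in macrophages. The receptors of the ligands called higher in macrophages were therefore low in most libraries. The other 4 receptors that, like Tnfrsf10b, never reached 1 FPKM were osteoprotegerin (Tnfrsf11b, 0.789 in microglia 4 and 0 elsewhere), Tnfrsf13c, TROY (Tnfrsf19, at most 0.240) and death receptor 3 (Tnfrsf25, 0.656 in microglia 3 and 0 elsewhere).

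Known ligand and receptor partners were set side by side within each library. Of 23 pairs that include a member, those with both partners at 1 FPKM or more numbered 7, 3, 4 and 7 in microglia 1 to 4 and 8, 5, 6 and 9 in macrophages 5 to 8. Genes of any kind at that level numbered 8880, 5992, 8165 and 9505 in microglia 1 to 4 and 10101, 9480, 8814 and 10282 in macrophages 5 to 8. The pair counts were not adjusted for this. TWEAK with Fn14 met this in 3 microglial and 4 macrophage libraries, and so did BAFF with TACI and APRIL with TACI. TNF with either of its receptors met it in 4 microglial and 3 macrophage libraries. CD30 ligand with CD30, RANKL with RANK, and the OX40 and GITR pairs met it in no library, and 4-1BB ligand with 4-1BB met it in 1 macrophage library. The summed FPKM of the 11 ligands was 31.0 to 54.8 in microglia and 43.6 to 155 in macrophages, and that of the 20 receptors was 74.9 to 89.5 and 75.7 to 174. All genes together summed to 295900 to 392800 FPKM in microglia and to 300700, 512000, 207100 and 242100 in macrophages 5 to 8. The reported fit did not rescale for these totals. Among macrophages, both member sums were highest in library 6 and lowest in library 7, as the totals were. Microglia 2 had the most members listed at 0, 7 ligands and 9 receptors, and it also had the fewest genes at 1 FPKM.

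Superfamily genes with other symbols were measured in the same way, and 2 of 7 ligands and 4 of 8 receptors entered the test. Of these 6, 0 passed the adjusted threshold by limma, while 5 had an unadjusted p below 0.05, a level that 15.0% of all genes tested reached. Cd40, Relt and Fas reached 1 FPKM in all 4 macrophage libraries and could enter the test through these alone. The counts therefore describe only the genes that passed the filter. Tnf was at 7.63, 28.7, 9.41 and 7.84 FPKM in microglia and 3.19, 11.1, 0.0590 and 3.07 FPKM in macrophages, with macrophage 6 alone inside the microglial range (log2 fold change -1.69 ± 0.76 SE, 95% interval -3.27 to -0.11, limma adjusted p = 0.301). Cd40, the receptor through which T cells activate antigen-presenting cells, was at 0.0596, 0, 3.73 and 6.04 FPKM in microglia and 12.6, 11.9, 12 and 13.8 FPKM in macrophages. Its groups did not overlap, and its log2 fold change of 2.47 ± 0.75 (SE, 95% interval 0.93 to 4.01) missed the threshold (limma adjusted p = 0.0842).

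Ltb, encoding lymphotoxin beta, was listed at 0 in microglia 1, 2 and 3, was at 1.39 FPKM in microglia 4, and was at 7.47, 5.18, 0.234 and 17.2 FPKM in macrophages (log2 fold change 2.24 ± 0.70 SE, limma adjusted p = 0.102). Relt, an orphan receptor, had the same zeros, 2.89 FPKM in microglia 4, and 6.92, 8.68, 1.85 and 11.8 FPKM in macrophages (2.37 ± 0.68 SE, limma adjusted p = 0.0659). In both genes macrophage 7 lay below microglia 4, as it did for Tnfsf9. Fas, the receptor of Fas ligand, was at 2.1, 0, 0 and 0.179 FPKM in microglia and 1.37, 4.54, 1.69 and 10.4 FPKM in macrophages (1.69 ± 0.61 SE, limma adjusted p = 0.181). Ltbr, the lymphotoxin beta receptor, was at 13.6, 65.6, 40.1 and 20.5 FPKM in microglia and 11.3, 27.0, 20.6 and 14.1 FPKM in macrophages (-0.73 ± 0.59 SE, limma adjusted p = 0.598). Eda2r reached 2.13 FPKM in microglia 1 and was at or below 0.488 FPKM elsewhere. Lta, Cd40lg and Eda were listed at 0 in every library, and Fasl, Cd70, Ngfr, Cd27 and Edar never reached 1 FPKM.

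Downstream of the receptors, 7 lists of adaptors, effectors and targets held 82 genes, of which 73 were tested and none passed the adjusted threshold by limma. An unadjusted limma p below 0.05 was found for 13 of the 73, or 17.8%, all higher in macrophages. Of all genes tested, 15.0% were below that level in either direction and 11.6% were below it and higher in macrophages. The receptor adaptors had the highest median log2 fold change, 1.01 over 11 tested genes, of which 4 were below an unadjusted p of 0.05. Their member with the highest mean, Tradd, the adaptor of TNF receptor 1, was at 8.29, 0, 1.73 and 8.18 FPKM in microglia and 16.8, 29.8, 5.30 and 13.7 FPKM in macrophages (log2 fold change 1.94 ± 0.78 SE, limma adjusted p = 0.240). The 15 tested genes of the canonical NF-kB list had a median of 0.50, against 0.37 for all genes, with 3 below an unadjusted p of 0.05. Nfkbia, the inhibitor that holds NF-kB in the cytoplasm, was at 26.6 to 128 FPKM in microglia and 20.8 to 117 FPKM in macrophages, a log2 fold change of 0.03 ± 0.59 (SE, limma adjusted p = 0.988).

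The other 5 lists had medians near that of all genes. The median log2 fold change was 0.34 for 13 genes of death signalling, 0.37 for 3 of the alternative NF-kB branch, 0.53 for 8 feedback inhibitors, 0.31 for 5 genes of ligand and receptor shedding and 0.47 for 18 genes that TNF is known to induce. Their members with the highest mean were Bax, a pore-forming protein of apoptosis, Relb, Fam105b (the deubiquitinase otulin), the sheddase Adam10 and the chemokine Ccl2. Bax was at 56.0 to 67.8 FPKM in microglia and 38.7 to 134 FPKM in macrophages. Ccl2 was at 239, 1332, 307 and 329 FPKM in microglia and 153, 1122, 111 and 62.0 FPKM in macrophages, with microglia 2 and macrophage 6 far above the others (log2 fold change -1.18 ± 0.68 SE, limma adjusted p = 0.428). Limma adjusted p-values were 0.898 for Bax, 0.941 for Relb, 0.702 for Fam105b and 0.824 for Adam10. Ptgs2, named after its values were seen, came closest to the threshold among the 73 genes (log2 fold change 1.94 ± 0.53 SE, limma adjusted p = 0.0504). It was at 0.4, 0, 0 and 0 FPKM in microglia and 1.58, 8.5, 1.4 and 4.21 FPKM in macrophages. Only the 4 macrophage libraries reached 1 FPKM, so it entered the test through the group where it was higher.

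**Figure D5:**
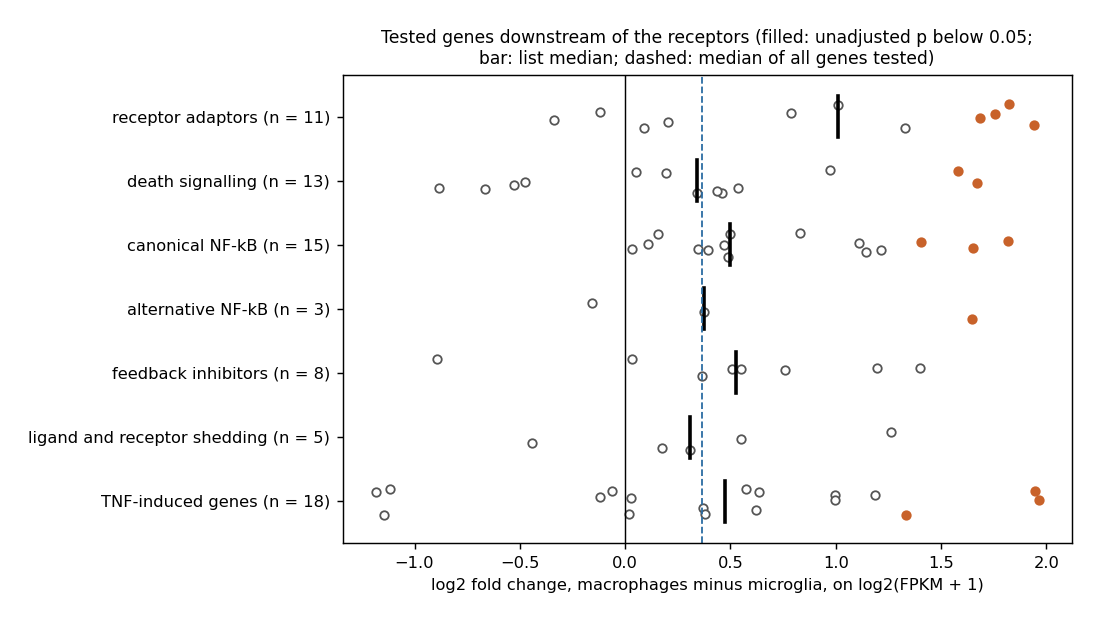
Log2 fold change (macrophages minus microglia, log2(FPKM + 1)) of each tested gene in 7 lists downstream of the receptors, with filled points for an unadjusted limma p below 0.05, a bar at each list's median and a dashed line at the median of all genes tested. The median of the receptor adaptors, 1.01, lies to the right of the dashed line at 0.37, and those of the other lists lie between 0.31 and 0.53.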

How the data were processed

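Total RNA of 8 libraries was sequenced on an Illumina HiSeq instrument after mRNA library preparation, per the labels. The authors deposited 1 table of FPKM per library, made with Cufflinks 2.1.1 after bcl2fastq 1.8.4 on mm9, per the submitters' processing notes. No source used here names the aligner, the annotation or the strand setting. Of 23021 rows, those of 1 symbol were summed to 22558 symbols, and 9 symbols with a failed estimate were left out. All 31 members had 1 row each with status OK. FPKM are not counts, so log2(FPKM + 1) was tested with limma 3.58.1 (R 4.3.3; intensity trend, two-sided, Benjamini-Hochberg) over genes that reached 1 FPKM in 4 or more libraries, called at an adjusted p below 0.05. The script was tested on simulated data. Fragment depth was estimated from the smallest recurring FPKM step. An FPKM of 0 may be a failed estimate even with status OK, which was not tested. Among the symbols kept, 2 otherwise well-expressed genes were at 0 in a single library, 1 each in microglia 2 and 3. Tested members were refitted under other pseudocounts, filters, scalings and library sets and with an exact permutation test. Every member is accounted for. Those reaching 1 FPKM are given in each library, and of each downstream list the called members or, with none called, the tested member with the highest mean is named. Members and lists were chosen with earlier results of these data known. Promoter windows came from the RefSeq GRCm38.p6 table, which held 24 of 31 members (not Tnfsf9), and those printed matched NCBIM37 once.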

Additional observations from a re-analysis of the deposited data

Results flagged for a closer look

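In 9 of 57 groups of 4 libraries, over 30 superfamily genes, 1 library lay so far from the other 3 that the gap passed Dixon's 95% critical value for 4 values, which chance gives in about 1 in 20 groups of normally distributed values. These values are floored at 0, so that rate need not hold here. Microglia 2 held 3 of them, where Tnfrsf21 was lowest at 7.07 FPKM, Tnfrsf9 highest at 1.89 FPKM and Tnf highest at 28.7 FPKM. Another 3 were the highest values of microglia 4, Tnfsf9 at 2.86, Ltb at 1.39 and Relt at 2.89 FPKM, genes listed at 0 in the other 3 microglial libraries, where any value above 0 passes. The rest were Fas in microglia 1, highest at 2.1 FPKM, Tnfrsf8 in microglia 3, highest at 1.86 FPKM, and Tnfsf15 in macrophage 7, highest at 1.26 FPKM.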

How the results depend on the processing

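Separate fits called 219 genes as reported, 136 with a pseudocount of 0.1, 50 with no filter, 336 with equal-sum scaling, 25 with a term for Y-linked expression and 119 to 258 when single libraries were left out (122 without macrophage 5, 119 without macrophage 8). Of the 2 ligands called, 1 was called (Tnfsf8) with a pseudocount of 0.1, no filter, the mean filter, upper-quartile or median-of-ratios scaling and without microglia 2 and 3, 1 to 2 when single libraries were left out, and 0 with the Y-linked term. Receptors called were 0 in every setting run. The share of calls higher in macrophages was 70.3%, and 59.5%, 55.3% and 53.4% with upper-quartile, median-of-ratios and quantile scaling, and it was 49.7% without macrophage 6 and 76.7% without macrophage 7. Those 3 scalings put the median of all genes at 0.27, 0.17 and -0.03 in place of 0.37 (0.47 with equal-sum scaling). Signs changed for 2 genes. Tnfrsf17 was at -0.35 with quantile normalization, -1.04 without microglia 2 and 3, -0.57 with the Y-linked term, -0.33 without microglia 2 or 3 and -0.04, -0.14 and -0.11 without macrophages 5, 7 and 8 (leaving out single libraries spanned -0.33 to 0.42). Tnfsf13b was at 0.0781 with equal-sum scaling, 0.28 without microglia 2 and 3, 0.0936 with the Y-linked term and 0.19, 0.16 and 0.26 without microglia 2, macrophage 7 and macrophage 8 (single libraries spanned -0.66 to 0.26). Of the single members' other results, 217 kept their direction and side of the threshold. Another 15 fell below it (14 of Tnfsf9) and 1 passed it (Tnfrsf11a by the exact test, unadjusted). The causes were not tested. No paired analysis was possible because the labels number the groups 1 to 4 and 5 to 8. Levels well below 1 FPKM rest on few fragments, and zeros may be failed estimates.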
